A study of Mus musculus with 16 samples.

Results

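The comparison described here was made within the ctl line, immortalized mouse embryonic fibroblasts (iMEFs) of genotype R26M2rtTA/+;TetOcre;Sdhcfl/wt, between late and early days after doxycycline was added. The late libraries were those of day 12, day 16 replicate 1 and day 20, and the early libraries those of days 0, 5 and 9, so 6 of the 16 libraries of the series entered, 3 on each side. Of the other ctl libraries, replicates 2 and 3 of day 16 stayed out of the test, and their values are given beside it. The exp line, R26M2rtTA/+;TetOcre;Sdhcfl/fl, was sampled on the same 6 days and serves as a second reading. Both lines carry a reverse tetracycline transactivator at the Rosa26 locus and a Cre recombinase that it switches on, and both received doxycycline at 1 µg/mL, so a doxycycline-treated line without a floxed Sdhc copy, or the ctl line without doxycycline, is not analysed here. There was 1 line per genotype and 1 library per day used. Length of doxycycline exposure and time in culture both separate late from early, while days 5 and 9 on the early side already followed the addition of doxycycline. The labels do not give the day by which the floxed Sdhc copy was lost. Exposure, culture time and copy loss cannot be told apart. The 3 days of a side stood in for replicates, and p-values therefore measure the spread among these libraries of 1 line.

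Succinate dehydrogenase (SDH) oxidizes succinate to fumarate in the citric acid cycle and passes the electrons to ubiquinone as complex II of the respiratory chain. Sdha and Sdhb encode its catalytic subunits, and Sdhc and Sdhd the subunits that anchor it in the inner mitochondrial membrane. Cre recombinase removes the floxed segment of 1 Sdhc copy in this line and leaves the wild-type copy in place. Doxycycline is a tetracycline, a class of antibiotics known to inhibit protein synthesis on mitochondrial ribosomes.

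Across the 6 libraries 12357 genes had a mean FPKM of at least 1 and were tested (FPKM, the unit of the deposited values, is a fragment count scaled by transcript length and sequencing depth). At a Benjamini-Hochberg adjusted p under 0.05 from limma, 13 genes fell in late libraries, which is 0.105% of the genes tested, and 0 genes rose. The fall was small, between 0.34 and 0.63 on the log2(FPKM + 1) scale on which all changes below are given. Without the adjustment, 1535 genes (12.4%) were lower and 448 (3.63%) higher at p under 0.05. For 2051 genes (16.6%) every late library lay below every early one, and for 856 (6.93%) every late library lay above. The median change of all genes was -0.024, and 59.4% of them had negative changes. The first principal component, with 39.2% of the variance, placed the early libraries between -12.5 and -5.2 and the late ones between 7.9 and 10.3.

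Recovered read totals were 25502254 to 34818815 per library for the 6 libraries and 42310297 and 40406967 for day 16 replicates 2 and 3. These last libraries differed from replicate 1 of their own day in many of the genes named below. When they were added to the late side, 0 genes passed, with a smallest adjusted p of 0.233, and 1305 passed at an unadjusted p under 0.05. All of the 13 calls were lost when day 5, 9, 12, 16 or 20 was left out, and 11 were kept without day 0. Markers of fibroblasts summed to 4054 to 4213 FPKM in early and 4183 to 4195 in late libraries, with 0 of 12 tested markers called. The largest parts of that sum were Vim, S100a4 and Col1a1, with means of 1525, 1163 and 945 FPKM. Dcn was low at 2.66 to 3.72, and Thy1 (0.512 to 0.879) and Lum (0.434 to 1.1) were too low to be tested. The marker lists of endothelium (6 genes, among them Pecam1 and Cdh5), skeletal muscle (5, among them Myod1) and pluripotent and germ cells (4, among them Pou5f1) lay below 0.5 FPKM throughout, as did 7 of the 8 measured leukocyte markers, Ptprc among them, while the eighth, Cd68, measured 4.65 to 5.71. Other lists held expressed members beside absent ones: Msln lay at 84.8 to 104 FPKM, Nes at 49.8 to 69.4, Tubb3 at 24.1 to 29.2, Krt19 at 6.28 to 13.3 and Fabp4 at 5.12 to 6.74. No marker of any list was called. In such bulk libraries fewer cells of a kind and less RNA per cell cannot be told apart.

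Sdhc itself, on chromosome 1 at 173057296 to 173080734 on the minus strand (mm9), was highest at the start. It measured 90.5, 58.6 and 47.6 FPKM on days 0, 5 and 9, then 52.6, 50.5 and 54.7 on days 12, 16 and 20. The day 0 library stood above the other ctl libraries, the groups overlapped, and every value from day 9 on lay close together. The late minus early difference was -0.26 ± 0.23 (SE) with a limma adjusted p of 0.61 and a 95% interval of -0.83 to 0.30, and an exact two-sided permutation test over the 3 against 3 libraries gave p = 0.5, where the smallest possible is 0.1. Without the day 0 library the difference was -0.01. Replicates 2 and 3 of day 16 measured 50.1 and 47.5 FPKM. The value sums reads over the whole gene, so reads from exons outside the floxed segment count too, and no label names that segment. In the exp line Sdhc went from 87.8, 54.4 and 43.8 to 44.0, 36.9 and 42.5 FPKM over the same days, a difference of -0.52 (adjusted p = 0.533), and the difference between the lines had an adjusted p of 0.922.

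The partner subunits differed by 0.06 or less. Sdha, the flavoprotein that binds succinate, measured 69.5, 73.5 and 71.6 FPKM early and 74.8, 74.3 and 74.4 late. Sdhb, the iron-sulfur subunit, measured 26.6, 26.7 and 26.6 early and 27.8, 27.3 and 27.0 late. Sdhd measured 109, 95.7 and 87.1 early and 97.2, 96.9 and 106 late. Their changes were 0.06, 0.04 and 0.04, with adjusted p of 0.527, 0.662 and 0.83. Sdha and Sdhb each had every late value above every early one, and Sdhd had overlapping groups. Of the 8 SDH subunits and assembly factors tested, 0 were called and the median change was 0.02.

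**Figure D1:**
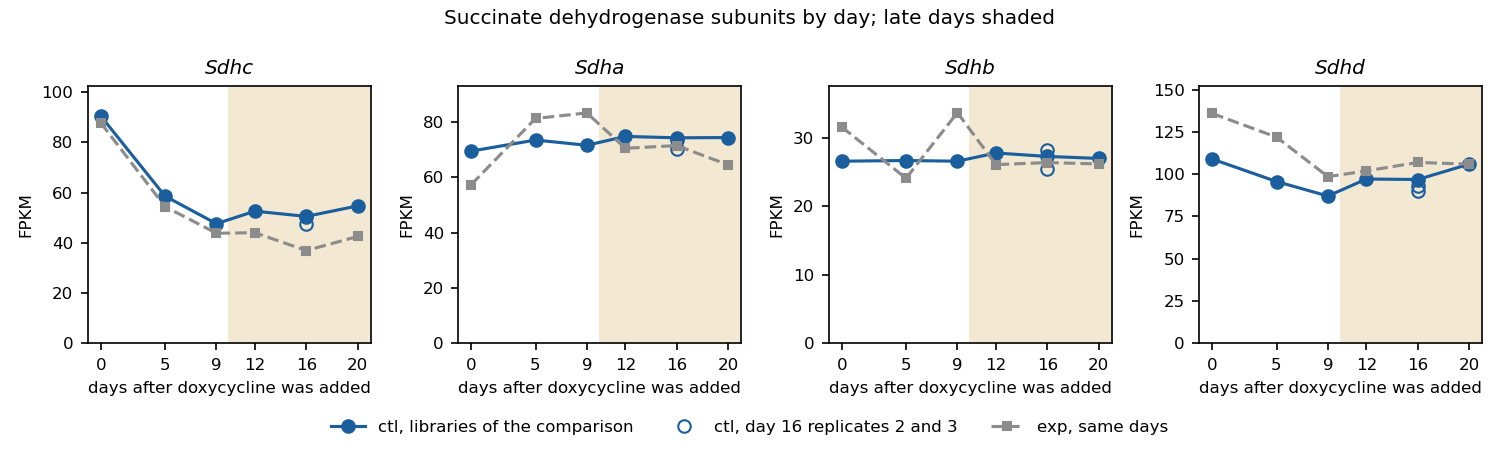
FPKM (vertical axis, from 0) of Sdhc, Sdha, Sdhb and Sdhd against days after doxycycline was added, 1 point per library: filled blue for the 6 ctl libraries compared, open blue for ctl day 16 replicates 2 and 3, grey squares for the exp line. Sdhc starts at 90.5 in ctl and stays between 47.5 and 58.6 in the later ctl libraries, while Sdhb lies between 25.4 and 28.3 in all 8.

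Other mitochondrial genes encoded in the nucleus had small differences. None of the 36 complex I subunits was called and their median was 0.01. Medians were 0.02 over 35 subunits of complexes III, IV and V and 0.04 over 38 mitochondrial ribosomal proteins. For the 21 citric acid cycle enzymes the median was 0.08 and 18 had positive changes, while 59.4% of all genes had negative ones. Of the 21, 5 were higher at an unadjusted p under 0.05, against 3.63% of all genes. Ogdh, the oxoglutarate dehydrogenase subunit, measured 28.3, 27.7 and 27.6 FPKM early and 29.7, 31.6 and 30.8 late (0.14, adjusted p = 0.204). Ndufb4, a complex I accessory subunit, went the other way, from 14.9, 13.9 and 15.3 to 12.6, 11.3 and 11.7 FPKM (-0.29, adjusted p = 0.0908). Both had groups that did not overlap, and neither passed. The 33 tested genes of the ATF4 and amino-acid response, which mitochondrial stress is known to raise, had a median of 0.12. At an unadjusted p under 0.05, 8 were higher and 4 (12.1%) lower, against 3.63% and 12.4% of all genes. Nupr1, a stress-induced regulator on that list, measured 98.6, 77.3 and 88.1 FPKM early and 71.0, 70.1 and 63.1 late (-0.36, adjusted p = 0.141). The 19 mitochondrial chaperones and proteases had a median of 0.08 and none passed even unadjusted. Genes encoded in mitochondrial DNA are not analysed here.

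Among the 13 genes that fell was Xist, the long noncoding RNA that coats the inactive X chromosome (chromosome X, 100655714 to 100678556, minus strand, mm9). It measured 73.2, 83.2 and 84.6 FPKM early and 51.6, 51.5 and 51.1 late, a change of -0.63 ± 0.06 (SE, limma adjusted p = 0.0433). The late libraries agreed within 1 FPKM, and all lay below all early ones. Day 16 replicates 2 and 3, however, measured 92.5 and 78.2, inside or above the early range. In the exp line Xist did not exceed 0.283 FPKM in any library, so the fall has no second reading there. Tsix, its antisense RNA, measured 24.9, 25.7 and 32.4 FPKM early and 18.3, 19.6 and 18.6 late (-0.52, adjusted p = 0.0825), and whether the counting used strand is unknown, so reads of the pair cannot be told apart.

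Genes of RNA processing and transcription were also among the 13. U2af1, which recognizes the 3′ splice site, measured 19.1, 19.6 and 19.8 FPKM early and 14.1, 14.7 and 15.2 late, a fall of 0.39 (adjusted p = 0.0443). Ccnt2, a cyclin of the elongation factor P-TEFb, fell by 0.39, from 18.5, 18.1 and 18.9 to 13.6, 13.4 and 14.5 FPKM (adjusted p = 0.0443). In both genes the early values sat within 1 FPKM of each other and the gap to the late values was several times that spread. Replicates 2 and 3 of day 16 measured 23 and 21.1 for U2af1 and 21.3 and 19.8 for Ccnt2, above every early library.

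Prrt2, a protein of the presynaptic membrane, fell by 0.63, from 13.6, 15.3 and 15.4 to 8.92, 8.78 and 9.91 FPKM (adjusted p = 0.0433). Eno2, the neuronal form of the glycolytic enzyme enolase, fell by 0.38, from 17.7, 18.0 and 18.1 to 13.1, 13.6 and 14 (adjusted p = 0.0443), the only call among 21 tested genes of glycolysis and lactate. Ypel4, of the yippee-like family, fell by 0.56, from 7.02, 8.23 and 7.13 to 4.78, 4.65 and 4.78 (adjusted p = 0.0443). These 3 genes differed in replicates 2 and 3: Ypel4 was as low there, at 3.79 and 3.80 FPKM, while Prrt2 (14.5 and 15.9) and Eno2 (20.1 and 21.4) were at or above their early levels. Lmbr1l, a membrane protein gene, fell by 0.48 (adjusted p = 0.0444), with day 16 replicates 2 and 3 at 8.65 and 8.19 FPKM, between its late values (6.81 to 6.93) and its early ones (9.26 to 10.6). Tmem181b-ps, a transcribed pseudogene whose reads may be shared with its parent gene, fell by 0.46 (adjusted p = 0.0443). The remaining calls were 2700081O15Rik (-0.34), the noncoding Gm49890 (-0.43) and the small RNA genes described below, which lie outside the rule for named genes and were named after their values were seen.

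Among genes that met the rule for named genes, 6 more were next in order of p without passing: Dnm3os, Sned1, Arhgef39, Paxbp1, Nrbp2 and Mdm4, with adjusted p from 0.0524 to 0.0529. Dnm3os, the host transcript of a microRNA cluster, measured 14.2, 16.0 and 17.9 FPKM early and 9.70, 10.3 and 10.7 late (-0.60), and 26.3 and 26.6 in day 16 replicates 2 and 3. Mdm4, an inhibitor of p53, measured 18.7, 19.5 and 19.9 early and 14.9, 14.8 and 15.7 late (-0.34), and 26.4 and 24.2 in those replicates. For both genes the direction was therefore opposite in replicates 2 and 3.

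Immediate-early genes, the transcription factors and regulators induced first after serum or stress, held the largest differences of the comparison, and the widest spread among early days. Fos measured 346, 162 and 83.1 FPKM on days 0, 5 and 9 and 13.6, 7.73 and 5.95 on days 12, 16 and 20. It was lower at each successive day sampled, and the early mean was 21.7 times the late mean. The change was -4.13 ± 0.56 (SE), with an adjusted p of 0.0751 that does not pass. Fosb, its close relative, measured 107, 35.0 and 11.0 early and 0.981, 0.683 and 0.723 late (-4.33, adjusted p = 0.103). Zfp36, which destabilizes AU-rich mRNAs, measured 138, 77.9 and 49.6 early and 21.8, 20.9 and 21.4 late (-1.88, adjusted p = 0.109). Junb, a dimer partner of Fos, measured 209, 128 and 86.6 early and 47.2, 43.9 and 47.4 late (-1.50, adjusted p = 0.125). In these 4 genes the early values were ordered by day, and the late values of Zfp36 and Junb lay close together.

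Of the 26 immediate-early genes tested 0 were called, and 8 (30.8%, against 12.4% of all genes) were lower at an unadjusted p under 0.05. In 12 every late library lay below every early one, against 16.6% of all genes. The median was -0.43, and the members ranged from -4.33 to 0.18, with 6 positive, while 59.4% of all genes were negative. Against the early mean of each gene, the median over the list was 0.61, -0.15 and -0.39 on days 0, 5 and 9 and -0.47, -0.38 and -0.44 on days 12, 16 and 20, so day 9 already lay at the late level and day 0 stood apart. In the exp line the median change over the same genes was -0.29. Against the early exp mean, the list lay at 1.07, -0.64 and -0.55 on days 0, 5 and 9. It lay at -0.40, -0.33 and -0.27 on days 12, 16 and 20. Every late exp library was thus above days 5 and 9, and day 0 stood apart. Fos in exp measured 1089, 181 and 127 FPKM early and 87.4, 31.0 and 22.4 late (-2.86, adjusted p = 0.352). Day 16 replicates 2 and 3 of ctl held 31.2 and 12.7 FPKM of Fos, 29.0 and 29.8 of Zfp36 and 53.5 and 50.5 of Junb, all below the early libraries. For these genes, unlike Xist or U2af1, the additional day 16 libraries lay on the late side. Cells of all libraries were harvested with trypsin, and the labels do not give the time or handling of each harvest, whose part was not tested.

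The promoters of Fos, Fosb, Zfp36 and Junb are shown because these 4 had the smallest unadjusted p of the list, a choice made from the same values. Each of the 4 had every late library below every early one, as did other members. Each is the 250 bases before the transcription start in the RefSeq table (GRCm38.p6), with the core of the cyclic AMP response element (TGACG, either strand) or the CArG box in capitals.
Fos: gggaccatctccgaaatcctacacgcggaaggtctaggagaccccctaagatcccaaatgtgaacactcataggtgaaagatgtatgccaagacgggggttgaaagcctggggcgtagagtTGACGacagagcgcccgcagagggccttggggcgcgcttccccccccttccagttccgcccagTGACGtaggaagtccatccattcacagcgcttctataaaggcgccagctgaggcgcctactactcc
Fosb: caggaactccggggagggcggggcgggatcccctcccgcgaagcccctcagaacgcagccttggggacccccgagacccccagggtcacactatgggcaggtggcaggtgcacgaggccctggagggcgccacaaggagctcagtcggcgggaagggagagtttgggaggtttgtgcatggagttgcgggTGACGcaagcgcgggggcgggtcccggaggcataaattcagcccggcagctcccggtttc
Zfp36: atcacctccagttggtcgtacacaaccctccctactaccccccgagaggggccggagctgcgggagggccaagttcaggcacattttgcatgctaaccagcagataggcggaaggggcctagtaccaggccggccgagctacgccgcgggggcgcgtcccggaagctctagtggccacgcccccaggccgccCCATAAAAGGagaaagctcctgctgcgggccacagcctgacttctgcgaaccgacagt
Junb: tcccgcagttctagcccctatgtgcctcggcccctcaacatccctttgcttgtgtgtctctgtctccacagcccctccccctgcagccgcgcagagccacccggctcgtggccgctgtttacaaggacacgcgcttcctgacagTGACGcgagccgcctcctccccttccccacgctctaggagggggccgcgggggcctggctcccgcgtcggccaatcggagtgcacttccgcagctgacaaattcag

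The Fos window (chr12:85473640-85473889, plus strand) holds the TGACG core at 2 places, the Fosb window (chr7:19310046-19310295, minus strand) and the Junb window (chr8:84978749-84978998, minus strand) at 1 each, and the Zfp36 window (chr7:28379229-28379478, minus strand) holds the CArG box bound by serum response factor. Of the 26 tested immediate-early genes, 19 matched the table: 10 of 19 (52.6%) held TGACG, against 31.6% of 9442 tested genes with a window of the same length, and 3 of 19 (15.8%) held the CArG box, against 1.46%. The AP-1 core was in 0 of 19 and 3.72%. A match describes the letters of the window and no more.

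The microRNA genes of the miR-23a cluster were looked at after their values were seen, and all 3 described here were highest at day 0. Mir23a (chr8:86732417-86732491, plus strand, mm9) measured 17.1, 6.91 and 6.78 FPKM early and 2.85, 2.67 and 1.38 late (-1.68, adjusted p = 0.148). Mir27a measured 16.5, 4.37 and 1.35 early and 1.23, 0.988 and 1.19 late (-1.50, adjusted p = 0.368). Mir24-2 measured 38.8, 10.7 and 15.0 early and 16.0, 7.5 and 9.37 late (-0.77, adjusted p = 0.504), with groups that overlapped. None of the 3 passed. Few reads stood behind the values, 3 to 41 per library for Mir23a and 3 to 46 for Mir27a. An mRNA library counts reads over the hairpin and not the mature RNA. The mature 3p arms, with the seed (bases 2 to 8) in capitals, are shown because they name what the cluster makes, and the arms of miR-23a and miR-27a share UCACA within their seeds.
miR-23a-3p: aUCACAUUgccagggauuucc
miR-27a-3p: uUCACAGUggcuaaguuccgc

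Small nucleolar RNA (snoRNA) genes were lower as a class. These short RNAs guide methylation (C/D box) or pseudouridylation (H/ACA box) of ribosomal RNA, and most in the mouse lie in introns of host genes. Of 101 tested, 97 had negative changes, against 59.4% of all genes, and the median was -0.43. At an unadjusted p under 0.05, 47 (46.5%, against 12.4% of all genes) were lower and none was higher. The only one called was Snora28, in an intron of Eif5. It measured 37.7, 36.9 and 37.8 FPKM early and 27.7, 25.3 and 26.0 late (-0.49 ± 0.05 SE, adjusted p = 0.0433), but 60.1 and 59.7 in day 16 replicates 2 and 3. Eif5, a translation initiation factor, had higher late values, from 84.5, 79.8 and 84.8 to 90.3, 94.7 and 103 FPKM (0.21, adjusted p = 0.175). Snord71, in an intron of Ap1g1, was the only gene called when day was fitted as a number (1 of 12357, 0.00809%), and it fell by 1.23 ± 0.10 (SE) per 20 days (adjusted p = 0.0224). Its values were 9.27, 6.48, 6.11, 5.01, 4.03 and 3.24 FPKM from day 0 to day 20, from 19, 12, 10, 9, 9 and 6 reads, so counting error alone is large. Of the 101 snoRNA genes, 39 had a mean under 20 reads in the 6 libraries. Both were named after their values were seen, and their sequences are given as the single genes called in the class, with the ACA box of Snora28 and the D box of Snord71 in capitals.
Snora28 (chr12:112779152-112779278, plus strand, mm9): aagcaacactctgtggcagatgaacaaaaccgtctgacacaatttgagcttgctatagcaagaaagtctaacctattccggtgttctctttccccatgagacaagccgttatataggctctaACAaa
Snord71 (chr8:112363195-112363279, plus strand, mm9): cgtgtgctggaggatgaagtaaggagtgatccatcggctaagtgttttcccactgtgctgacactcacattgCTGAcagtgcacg

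For 79 of the snoRNA genes a single tested host gene could be assigned, 57 hosts in all. The snoRNA genes had a median of -0.45 and the hosts -0.09, and 67 of 79 lay below their host. Snora41 changed by -1.02 while its host Eef1b2, a translation elongation factor, changed by -0.01. At the other end Snord111, at 2 to 8 reads per library, had a difference of 0.46 against 0.08 for Sf3b3, its host. The 9 hosts that are themselves noncoding had differences from -0.59 (Snhg1) to -0.02 (Gm15832), with a median of -0.32 and 6 lower at an unadjusted p under 0.05. The 48 protein-coding hosts ranged from -0.54 (Rpl37) to 0.21 (Eif5), with a median of -0.06 and 13 lower. Of all genes tested, 12.4% were lower at that threshold. Libraries were prepared with a TruSeq kit for mRNA, and reads of a mature snoRNA, of its intron and of an overlapping host exon cannot be told apart in these values.

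**Figure D2:**
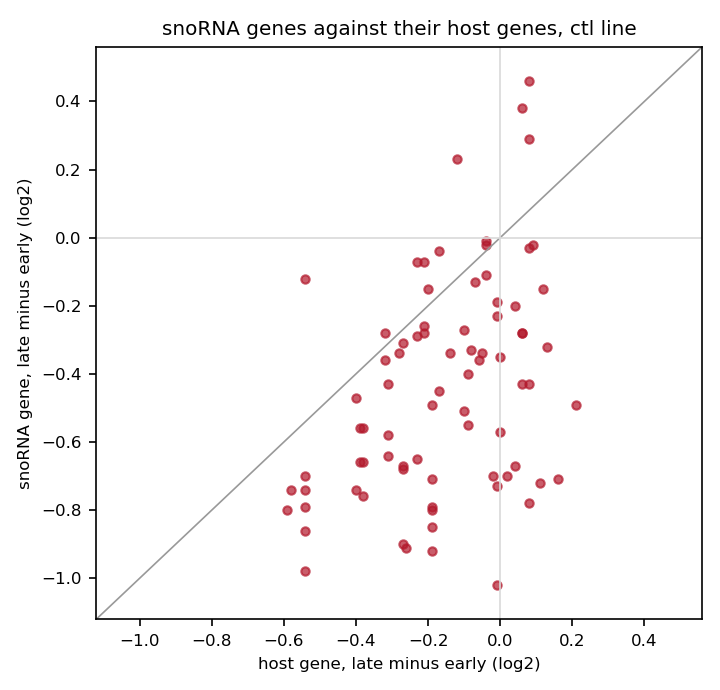
Late minus early difference in the ctl line on the log2(FPKM + 1) scale for 79 snoRNA genes (vertical axis) against that of the host gene (horizontal axis), 1 point per snoRNA gene, with the line of equal change in grey. Of the 79 points, 67 lie below the line.

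The snoRNA level followed the library set as well as the day. Against the early mean of each gene, the median over snoRNA genes was 0.24, -0.24 and 0.01 on days 0, 5 and 9, and -0.52, -0.52 and -0.38 on days 12, 16 and 20. In day 16 replicates 2 and 3 it was 0.22 and 0.18, near the top of the early range. With those libraries in place of replicate 1 the median late minus early change was -0.11. In the exp line the same median was 1.06, -0.40 and -0.58 early, -0.85, -0.43 and -0.44 late, and 0.44 and 0.42 in replicates 2 and 3. In both lines, then, the additional day 16 libraries were above the late libraries of the comparison, while in exp days 5 and 9 were about as low as the late days, and the reason was not tested.

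Other RNAs that are known to stay in the nucleus also had lower late values in ctl; this list was assembled after values were seen. Malat1, an abundant nuclear speckle RNA, measured 95.5, 81.5 and 115 FPKM early and 48.9, 52.4 and 59.4 late (-0.84, adjusted p = 0.0751), with 102 and 100 in day 16 replicates 2 and 3. Meg3, a maternally expressed noncoding RNA, measured 21.3, 22.6 and 26.6 early and 15.6, 16.8 and 18.1 late (-0.46, adjusted p = 0.0908), with 26.6 and 26.0 in those replicates. Neat1, which builds paraspeckles, had overlapping groups (30.4, 32.6 and 45.3 against 24.3, 27.5 and 32.4 FPKM, -0.34). Of the 8 tested RNAs of this list, 6 were lower at an unadjusted p under 0.05, against 12.4% of all genes. Of them 1 (Xist) was called, and the median was -0.40. Because the members were picked with their values known, this count and median describe the choice and test nothing. In exp the median over the 6 tested there was 0.11, at 0.62, -0.01 and -0.42 on early and -0.16, -0.05 and 0.04 on late days, so the groups overlapped. Over all 407 long noncoding RNAs tested, the median was -0.08 and 24.8% were lower at an unadjusted p under 0.05, against 11.5% of 11292 protein-coding genes.

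The pair Mir1906-1 and Mir1906-2, both called at -0.60 (adjusted p = 0.0433), had the same FPKM in every library: 169, 176 and 194 early, 114, 116 and 124 late, and 208 and 196 in day 16 replicates 2 and 3. They were therefore read as 1 signal. Mir1906-1 lies within Meg3 and overlaps its annotated exons, and reads of Meg3 cannot be told from reads of the hairpin.

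**Figure D3:**
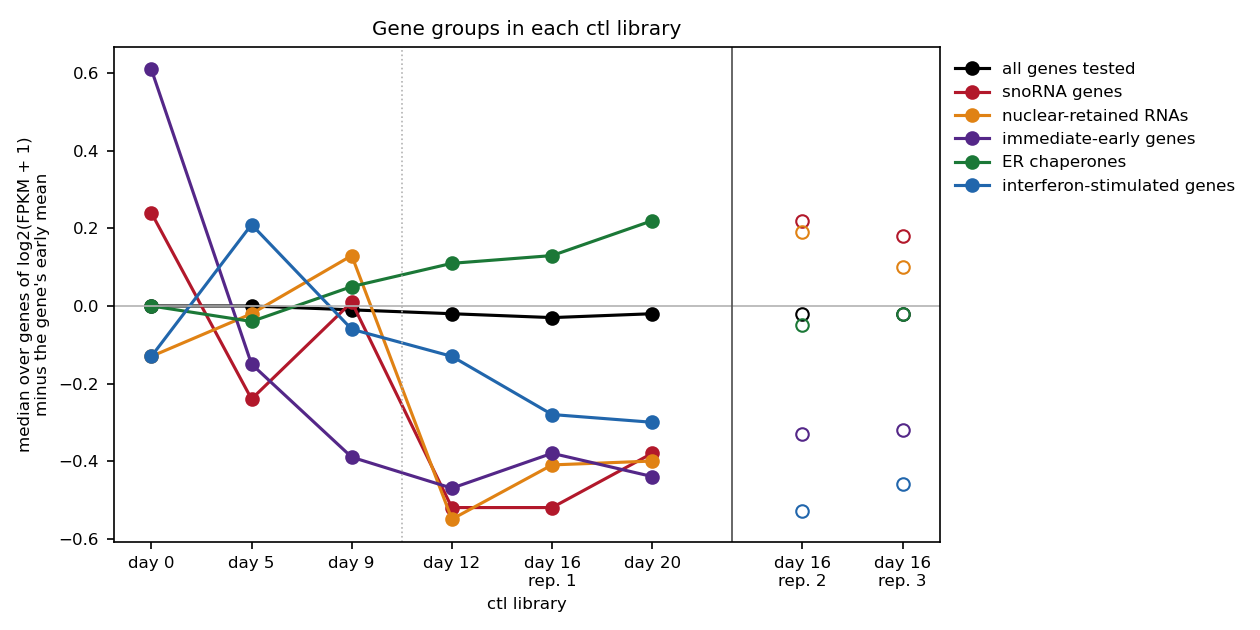
Median over the genes of 6 groups of log2(FPKM + 1) minus the gene's own early mean (vertical axis) in each ctl library (horizontal axis), with filled points for the 6 libraries compared and open points for day 16 replicates 2 and 3. The snoRNA genes lie at -0.52 to -0.38 in the late libraries and at 0.22 and 0.18 in the open points, while the immediate-early genes lie at -0.47 to -0.38 and at -0.33 and -0.32, after 0.61, -0.15 and -0.39 on the early days.

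On the other side of the comparison, endoplasmic reticulum (ER) chaperones had the highest median of the lists. Of 20 tested 0 were called, and 12 were higher at an unadjusted p under 0.05, against 3.63% of all genes. In 14 every late library lay above every early one, against 6.93% of all genes. The median was 0.15. Pdia4, a protein disulfide isomerase, measured 131, 137 and 139 FPKM early and 153, 155 and 159 late (0.20, adjusted p = 0.12). Calr, the lectin chaperone calreticulin, measured 686, 629 and 702 early and 764, 811 and 813 late (0.24, adjusted p = 0.129). Xbp1, the transcription factor of the unfolded protein response, measured 46.2, 44.1 and 50.4 early and 52.9, 56.4 and 55.5 late (0.23, adjusted p = 0.148). In all 3 the groups did not overlap, and for Calr and Xbp1 the gap between them was smaller than the spread among early libraries. Day 16 replicates 2 and 3 held 140 and 144 for Pdia4 and 654 and 665 for Calr, near or within the early range, and 41.9 and 43.7 for Xbp1, below every early library. With these libraries in place of replicate 1 the median of the list was 0.06. In the exp line the list's median was 0.17. It lay there at -0.07, 0.15 and -0.09 on early and -0.15, 0.38 and 0.25 on late days, so the groups overlapped. Cytosolic heat shock genes had a median of 0.13, with 7 of 16 higher at an unadjusted p under 0.05 (against 3.63%), among them the co-chaperone Stip1 (115, 99.5 and 110 against 121, 128 and 127 FPKM). In exp that median was -0.11, and in ctl day 16 replicates 2 and 3 the list lay at -0.10 and -0.09 against the early mean, below the 0.07 to 0.17 of the late libraries compared. Day 0 of ctl lay at 0.10 on the same measure, above late day 12 at 0.07, so the periods overlapped for the list.

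Single genes with higher late values were led by Wnt10a, a secreted Wnt ligand, at 45.0, 43.4 and 48.3 FPKM early and 55.2, 57.2 and 54.5 late (0.28, adjusted p = 0.0825). Serpinb9b, of the granzyme-inhibitor serpin family, measured 39.1, 41.0 and 49.8 early and 57.0, 60.3 and 65.3 late (0.49, adjusted p = 0.0908). Cd34, a sialomucin of progenitors and of many fibroblasts, measured 83.4, 90.1 and 86.1 early and 98.6, 101 and 109 late (0.25, adjusted p = 0.111). All 3 were lower than every early library in day 16 replicates 2 and 3, at 29.3 and 30.3, 22.1 and 23.1, and 43.5 and 41.5 FPKM. By contrast Epha1, an ephrin receptor (3.49, 3.53 and 4.39 against 5.19, 5.29 and 5.68), and the sterol enzyme gene Nsdhl (17.3, 16.7 and 16.8 against 19.5, 19.4 and 20.6) were still higher in those replicates, at 6.42 and 6.81 and at 28.5 and 27.2. Fez1, Hoxa7, Tinagl1, S1pr3, Eefsec, Babam2, Fam122a and Taldo1 completed the 14 smallest p-values in this direction, with differences of 0.19 to 0.39 and adjusted p from 0.0895 to 0.123. Sterol synthesis genes as a list had a median of 0.08, with 6 of 24 higher at an unadjusted p under 0.05, against 3.63%.

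Oxygen-sensing and dioxygenase genes are of interest because succinate, the substrate of SDH, is known to inhibit 2-oxoglutarate dioxygenases. Of 26 tested dioxygenases 7 (26.9%, against 12.4% of all genes) were lower at an unadjusted p under 0.05 and none higher, with a median of -0.05 and 0 called. Tet2, which oxidizes 5-methylcytosine, measured 5.13, 5.75 and 4.87 FPKM early and 3.75, 3.58 and 3.47 late (-0.44, adjusted p = 0.0751), and 4.62 and 4.25 in day 16 replicates 2 and 3. Among 26 tested targets of hypoxia-inducible factors outside glycolysis, 8 (30.8%, against 12.4%) were lower and 1 higher at an unadjusted p under 0.05, and the median was -0.07. Car9, a carbonic anhydrase, measured 7.38, 6.07 and 5.15 early and 3.85, 3.64 and 3.97 late (-0.57, adjusted p = 0.0905), and 2.17 and 2.06 in the replicates. Vegfa measured 15.9, 12.0 and 14.5 early and 11.0, 11.0 and 10.4 late (-0.34, adjusted p = 0.159), against 18.4 and 16.9. Car9 in replicates 2 and 3 thus lay on the late side, Vegfa above every library of the comparison and Tet2 between the groups.

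Cytosolic ribosomal proteins had a median of -0.12, with 11 of 34 (32.4%, against 12.4%) lower at an unadjusted p under 0.05 and 0 called. Rpl24 measured 13.1, 13.9 and 10.5 FPKM early and 7.24, 8.35 and 8.45 late (-0.58, adjusted p = 0.0775), and was back at 14.2 and 13.4 in day 16 replicates 2 and 3. DNA replication and mitosis genes had a median of -0.01 over 36 genes, with 0 called. Mki67, the proliferation marker, measured 85.5, 96.9 and 87.3 early and 78.6, 80.0 and 77.9 late (-0.18, adjusted p = 0.194). The 19 tested collagen chains had a median of -0.02 and the 20 tested p53 targets 0.03, with no gene called in either. Smooth-muscle contractile genes (12 tested, median 0.13), fatty acid genes (21, 0.05), NRF2 targets (24, -0.01), lysosome genes (23, -0.01), matrix proteases (19, -0.02) and Wnt, BMP and TGF beta genes (30, -0.06) likewise held no call. The 21 tested Hox genes had a median of -0.01. At an unadjusted p under 0.05, 4 were lower and 4 higher, against 12.4% and 3.63% of all genes. Hoxd10 had the smallest p, at 7.46, 9.38 and 8.46 FPKM early and 5.66, 5.23 and 5.92 late (-0.51, adjusted p = 0.0751). Hoxa7 went the other way, from 16.4, 16.7 and 18.3 to 21.1, 20.8 and 20.4 FPKM (0.26, adjusted p = 0.0908).

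Interferon-stimulated genes had negative differences in all 27 members tested, against 59.4% of all genes, and their median was -0.24. Against the early mean of each gene, the list lay at -0.13, 0.21 and -0.06 on days 0, 5 and 9. It lay at -0.13, -0.28 and -0.30 on days 12, 16 and 20, so day 0 was as low as day 12. Of the 27, 8 (29.6%, against 12.4%) were lower at an unadjusted p under 0.05 and 0 were called. Irf9, a subunit of the interferon-stimulated transcription factor, measured 19.4, 24.9 and 20.5 FPKM early and 18.8, 15.3 and 16.7 late (-0.33, adjusted p = 0.212), and 13.5 and 13.8 in day 16 replicates 2 and 3. Usp18, a negative regulator of the pathway, measured 2.34, 3.40 and 2.10 early and 1.99, 1.46 and 1.19 late (-0.50, adjusted p = 0.209). In the exp line the list's median was 0.73, and Usp18 there measured 1.39, 2.71 and 5.51 early and 9.13, 8.36 and 9.05 late. The direction was opposite in the lines, and the difference between them for Usp18 had an adjusted p of 0.105 and for Irf9 of 0.141, so neither passed. The interaction test called 1 member of the list, Xaf1, named for that reason: it measured 3.32, 3.91 and 2.59 early and 2.66, 1.79 and 2.2 late in ctl, against 2.09, 1.55 and 2.2 and then 4.48, 5.35 and 5.20 in exp (-1.44, adjusted p = 0.037).

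The 13 calls of the ctl comparison were also read in the exp line over the same days, with which it shares no library. Of the 12 of them tested in exp, 10 had a lower late mean there too, against 61.3% of the 12074 genes tested in both lines. The others were Mir1906-1 and Mir1906-2, counted here as separate genes though read above as 1 signal. They had a higher late mean in exp (0.77), as did Meg3 (0.43, adjusted p = 0.774 from limma). For each of the 10, exp day 0 was the highest exp library compared, and the exp groups overlapped for all but Gm49890. Snora28 in exp measured 65.9, 32.8 and 24.6 FPKM early and 24.2, 29.6 and 31.8 late. Of the calls, 0 were called in exp, and 0 differed between the lines by the interaction test. U2af1 in exp measured 33.4, 15.5 and 20.8 early and 14.9, 13.6 and 16.2 late (-0.54 ± 0.25 SE, adjusted p = 0.529). The exp estimate was larger than that of ctl, within a wider spread. In exp alone 1 gene of 12570 (0.00796%) was called: Dlk1 rose by 2.60 ± 0.22 (SE, adjusted p = 0.0491), a call lost when any of the exp days 0, 5, 9, 16 or 20 was left out, whereas 208 genes were called without exp day 12.

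The test of the difference between the lines, the ctl change minus the exp change in 1 model of 12 libraries, called 12 of 12565 genes, all with the lower change in ctl (0.0955%), and 0 in the opposite direction. For these genes the ctl line was level or slightly lower and the exp line higher on late days. Dlk1, an imprinted inhibitor of adipogenesis, measured 40.3, 41.5 and 39.4 FPKM early and 43.2, 42.5 and 40.6 late in ctl. In exp it went from 2.53, 2.03 and 3.33 to 15.5, 20.6 and 27.8, so the difference between the changes was -2.54 ± 0.25 (SE, adjusted p = 0.00534). Gpc3, a growth-restraining glypican, measured 11.1, 12.1 and 9.11 early and 10.2, 7.83 and 7.82 late in ctl, against 1.86, 2.80 and 3.30 and then 7.58, 9.50 and 7.91 in exp (-1.66, adjusted p = 0.0368). Prph, an intermediate filament of peripheral neurons, and Megf6 stayed at or below 1.80 and 1.88 FPKM in ctl. Also called were Gdf6, Xaf1, Cdh11, Bicc1, Pcdh7, Trim12c and Gbp3. In day 16 replicates 2 and 3 of exp, Dlk1 measured 4.27 and 4.82 FPKM, nearer to the early than to the late exp libraries. In those of ctl it measured 58.0 and 58.5, above every ctl library compared. With replicates 2 and 3 added in both lines the Dlk1 difference was -1.57 with an adjusted p of 0.639. The count of 12 was 0 with day as a block, and leaving out 1 library at a time it ranged from 1 to 355, the latter without the exp day 12 library.

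**Figure D4:**
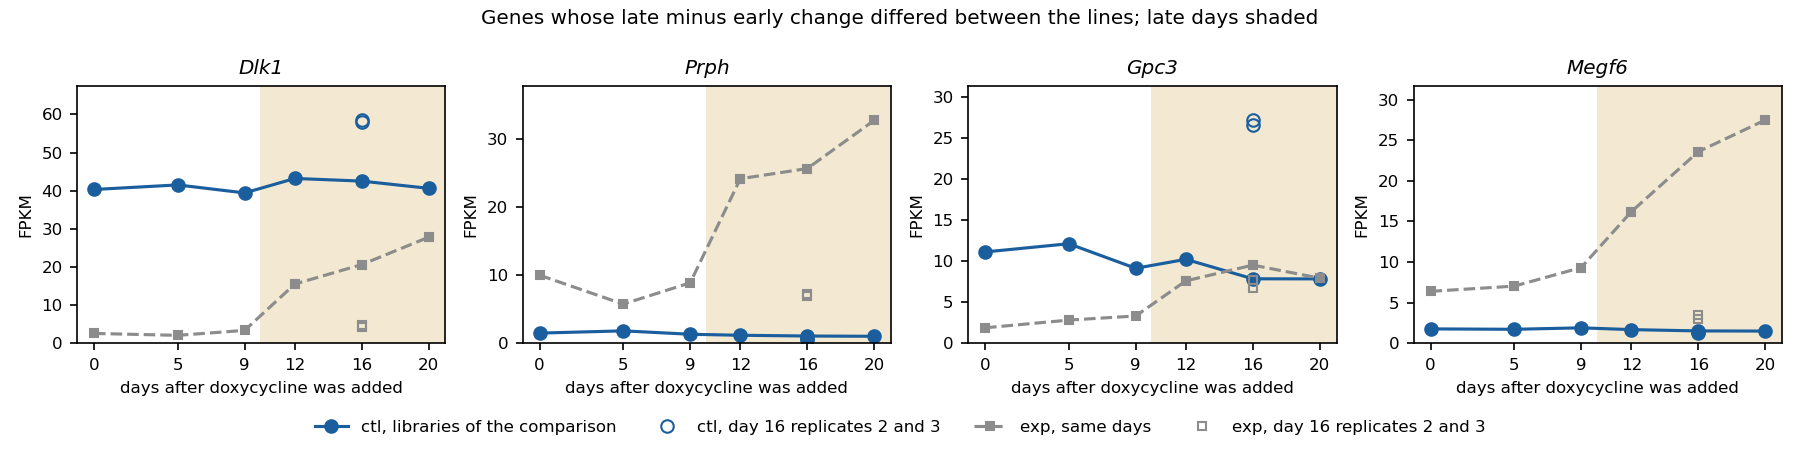
FPKM (vertical axis, from 0) of Dlk1, Prph, Gpc3 and Megf6 against days after doxycycline was added, with blue circles for ctl and grey squares for exp, filled for the 6 libraries of each line compared and open for day 16 replicates 2 and 3. For Dlk1 the filled ctl circles stay between 39.4 and 43.2 while exp reaches 27.8 at day 20. The open points for Dlk1 lie at 58.0 and 58.5 in ctl and at 4.27 and 4.82 in exp.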

How the data were processed

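Deposited values are FPKM per gene, made by the authors, with 24485 gene IDs in each library's file, 24416 of them matched to a symbol. The submitters' processing notes name Bowtie2 2.2.3 and the mouse build mm9. How reads were counted, on which annotation and with which strand setting, is not given in the sources used here. Coordinates (1-based) come from an annotation of that build, and promoters and mature microRNAs from RefSeq on GRCm38.p6. The titles give line and day.

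Depths are whole reads recovered from the FPKM steps, for 18964 of 18966 genes within 0.02 read, a limit set by the recovery. A listed 0 allows 3 reads. Fits were made in R 4.3.3 with limma 3.58.1 (statmod 1.5.0) on log2(FPKM + 1), which understates changes of low genes. Genes needed a mean FPKM of at least 1, and the empirical Bayes step was robust with a trend. Tests were two-sided, with Benjamini-Hochberg adjusted p under 0.05 as the threshold and the spread from ctl libraries alone. A model of line, period and their interaction used 12 libraries. The fits were tested on simulated data. Named genes were the SDH subunits, then per direction up to 14 calls with the largest changes, filled by the smallest p. These needed groups that do not overlap and FPKM of at least 5 in 3 libraries. To them were added up to 4 genes per list and 5 per direction for the interaction, of which 1 is not reported here. Members and lists were chosen with earlier results of these data known. Alternatives varied the pseudocount, filter, scaling, model and libraries.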

Additional observations from a re-analysis of the deposited data

Results flagged for a closer look

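The late minus early change differed between the ctl and exp lines by the interaction test for 12 genes, of which 4 with large differences and an FPKM of at least 5 in 3 or more libraries are given. Prph and Megf6 reached that level in exp libraries only. The ctl change minus the exp change was -2.54 for Dlk1 (adjusted p = 0.00534), -1.94 for Prph (0.0227), -1.66 for Gpc3 (0.0368) and -1.56 for Megf6 (0.0438), from limma over 12 libraries. In each of the 4 genes every late exp library was above every early one. They were picked for large differences in these same libraries, so this describes the choice and tests nothing. The ctl values of Prph and Megf6 lay below 2 FPKM throughout, where the scale compresses any change, so their differences rest on exp. Replicates 2 and 3 of day 16 in exp measured 6.89 and 7.27 FPKM for Prph and 3.49 and 3.01 for Megf6, against 25.7 and 23.6 in replicate 1. For Gpc3 they measured 7.72 and 6.66 in exp, near the late exp level of 7.58 to 9.50, but 26.6 and 27.2 in ctl, above every ctl library compared.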

How the results depend on the processing

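The 13 calls of the ctl comparison stand near the threshold. All of them were called with pseudocounts of 0.1 or 5 (13 and 15 genes) and with a mean FPKM of at least 5 (24 genes). The count was 0 without a filter on low values, with median-of-ratios rescaling, with limma lacking trend and robust, and with day 16 replicates 2 and 3 added or in place of replicate 1, where 2488, 2052, 1986, 1305 and 1156 genes had an unadjusted p under 0.05. It was 5 after quantile normalization, 1 for day as a number, 1 with the spread shared by both lines, and 21 with voom on recovered reads, an alternative chosen after seeing the data in place of voom with TMM, which was not run. Leaving out 1 library gave 0 to 36 calls, with 36 without day 0 (11 of the 13 kept), 3 without day 5 (0 kept) and 0 without days 9, 12, 16 or 20. Each of these fits, also that without day 0, had 1 library fewer, and the cause of the losses was not tested. No alternative gave Sdhc a call, and its difference ran from -0.46 (without day 9) to -0.01 (without day 0), and its slope was -0.63 per 20 days.

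Directions turned with the day 16 libraries. With replicates 2 and 3 added, the change was -0.07 for Wnt10a, -0.07 for Serpinb9b, -0.26 for Cd34, -0.01 for Sdhd and 0.04 for Neat1. With them in place of replicate 1 it was -0.17, -0.20, -0.38, -0.01 and 0.14 for the same genes, 0.05 for Dnm3os and 0.02 for Mdm4. Sdhd was also at -0.02 per 20 days and ran from -0.03 without day 9 to 0.13 without day 0. Each of these values had an adjusted p above the threshold, and the cause was not tested.

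The 12 interaction calls became 0 with day as a block, 6 with a mean FPKM of at least 5, 6 with median-of-ratios rescaling, and 1 to 355 with 1 library left out: 355 without exp day 12 and 65 without exp day 9, against 1 without any of ctl days 0, 5, 12, 16 and 20 or exp day 20. With day 16 replicates 2 and 3 added in both lines, 20 genes were called without and 18 with a replicate block at day 16, of which 3 and 4 were among the 12; the replicate numbers name no shared culture, so they do not pair the lines. The exp count of 1 ran from 0 to 208, the latter without exp day 12. Leaving out exp libraries was chosen after seeing the data. Depth limits the short RNA genes most: 39 of 101 snoRNA genes and 243 of 12355 genes in all had a mean under 20 reads, and Snord71, the call for day as a number, had 6 to 19.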
